A study of Mus musculus with 6 samples.

Results

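The transcription factors that set rod and cone identity were followed in the retina of prCAD mutant mice. The 10 genes, of 18193 that the array names, were Nrl, Crx, Otx2, Esrrb, Mef2c, Rorb, Thrb, Rxrg, Neurod1 and Samd7, and every probe set that the platform annotation names for 1 of them alone was taken, which gave 21 of the 45037 probe sets on the array. The prCAD mutant group was 3 arrays of retinal RNA from knockout mice without photoreceptor cadherin, the product of Cdhr1, and the wild type group was 3 arrays from 129 mice. All mice were about 4 weeks old, and the retinas of 3 mice were pooled for each array, so replicate arrays differ as pools do, not as single mice. The labels name a strain for the wild type mice only. Strain and genotype cannot be told apart in any difference below. Values are log2 expression made with RMA, and a difference is prCAD mutant minus wild type on that scale.

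Photoreceptors arise from progenitors that switch on the homeodomain factor OTX2, which turns on its relative CRX. The leucine zipper factor NRL then directs the cell to become a rod, and without it the precursors become cones. Nuclear receptors refine the choice: RORB acts upstream of NRL, ESRRB helps keep rods alive, and THRB with RXRG restrains the short-wavelength opsin in cones.

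The labels were checked at Cdhr1, whose probe set read 3.94, 4.20 and 4.34 in the prCAD mutant arrays against 11.32, 11.36 and 10.98 in the wild type arrays. The array medians ran from 4.74 to 4.79, and the median over all values was 4.76. The defining markers of the retina were present: the 5 measured rod markers averaged 11.33 to 11.48 in prCAD mutant arrays against 11.31 to 11.70 in wild type arrays, and the 5 measured cone markers 8.89 to 9.34 against 9.17 to 9.44. In bulk RNA, fewer cells of a type and less RNA per cell cannot be told apart. Same-numbered arrays shared strong features. The control probe set for the 5′ end of 18S rRNA read 5.24, 10.18 and 5.68 in prCAD mutant replicates 1, 2 and 3 against 5.09, 10.15 and 5.53 in wild type replicates 1, 2 and 3, and that for the 3′ end of beta-actin read 8.90, 9.95 and 11.05 against 9.15, 10.15 and 11.00. Differences within same-numbered arrays, called pairs below, are therefore given beside each comparison.

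Mef2c lay lower in prCAD mutant retina at every one of its 5 probe sets and in every pair, by 1.62- to 2.06-fold, but did not pass the test over all probe sets. The other members differed less or less evenly. Esrrb lay lower at all 3 probe sets, and Rorb at all 3, while both Neurod1 probe sets and the brighter Samd7 probe set lay higher. Nrl, Crx and Otx2, the core of the rod programme, differed by -0.23 to -0.01 over their 4 probe sets.

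None of the 21 member probe sets passed an adjusted p of 0.05 (limma, Benjamini-Hochberg over all probe sets), where 0.0111% of all probe sets did. Each had an adjusted p of 0.9999. With the replicate number as a block 0 members passed as well, where 0.0333% of all probe sets did, and the smallest adjusted p was 0.0848, at Mef2c. At an unadjusted p under 0.05, 5 members lay lower, 4 of them of Mef2c and 1 of Esrrb, and 0 lay higher, where 1.34% of all probe sets lay lower and 1.68% higher. With the block there were 10 lower, 5 of them of genes other than Mef2c, and 0 higher, against 3.83% and 3.77% of all probe sets. Those 5 were Crx 1449185_at, Esrrb 1422986_at and 1436926_at, and Rorb 1425162_at and 1455799_at, each with an adjusted p of at least 0.6 with the block. Without wild type replicates 1, 2 and 3 in turn, the count at an unadjusted p under 0.05 was 3, 7 and 4. Without prCAD mutant replicates 1, 2 and 3 in turn it was 3, 2 and 8. The share over all probe sets was not counted for these fits. Probe sets of a gene share their target, so these counts are not of independent measurements.

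**Figure D1:**
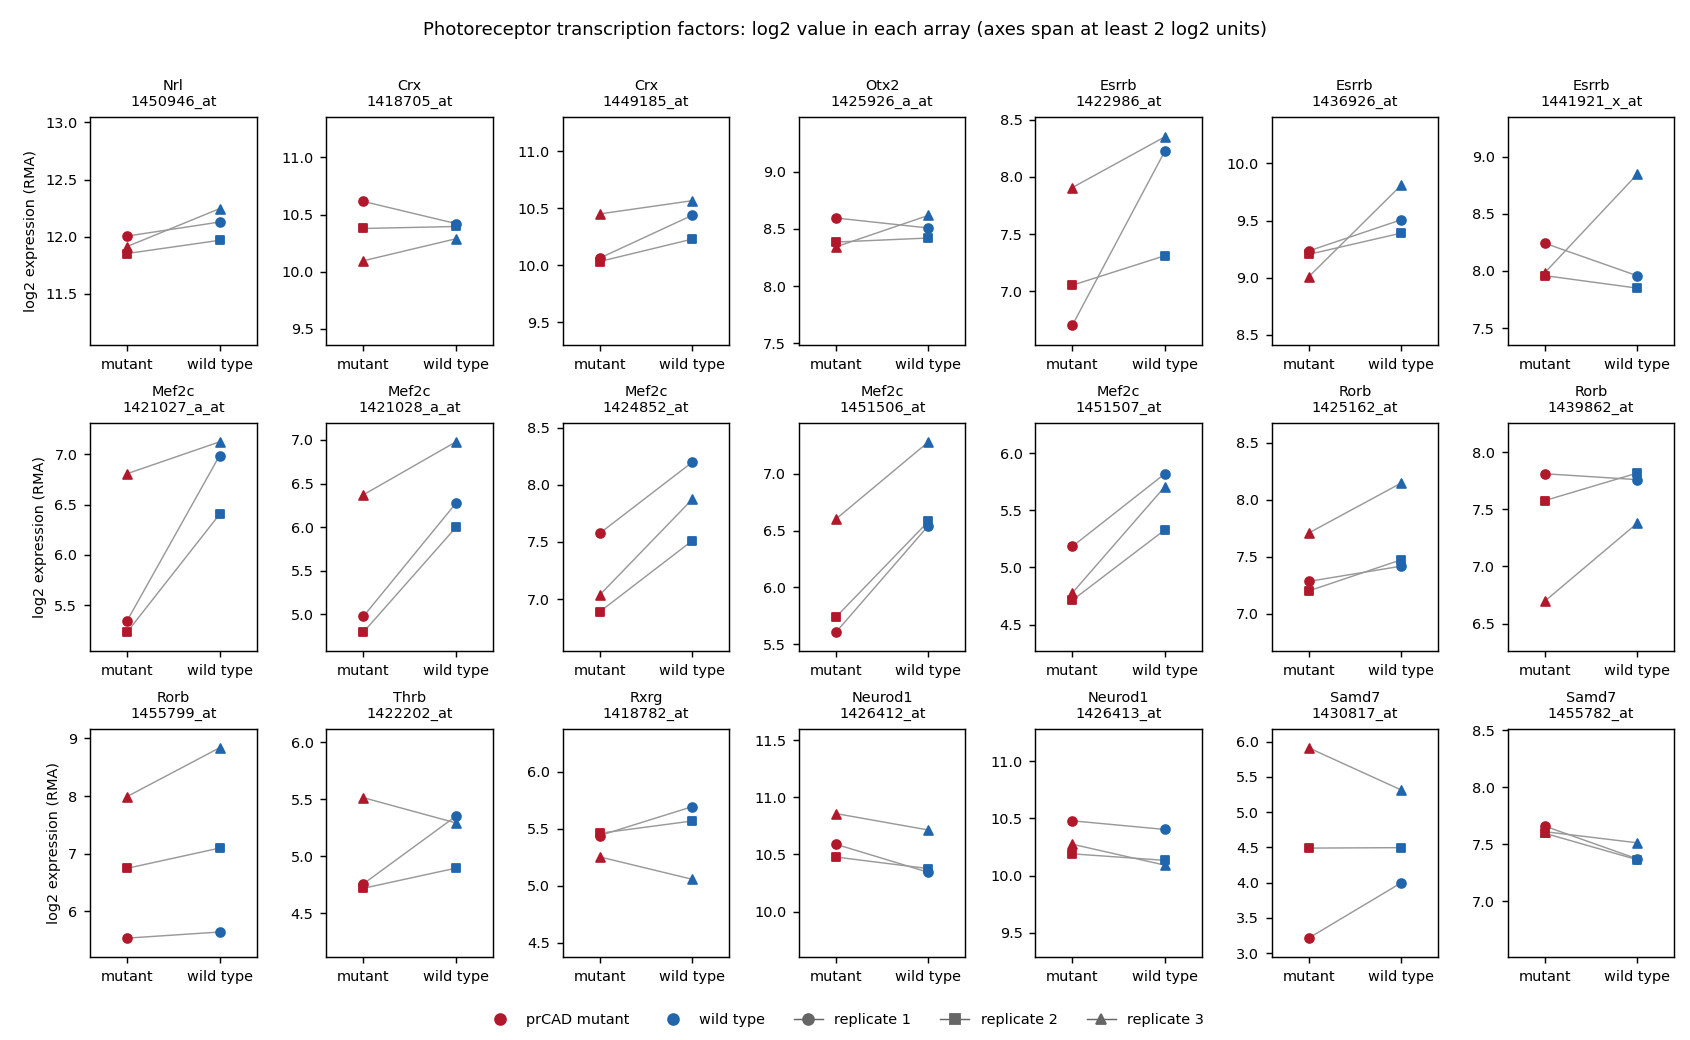
Log2 expression of each member probe set in the prCAD mutant arrays (left, red) and the wild type arrays (right, blue), with a line joining arrays of the same replicate number. All 15 lines of Mef2c run lower on the mutant side, while the Rorb probe set 1455799_at and the Samd7 probe set 1430817_at spread far more between replicate numbers than between groups.

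Otx2 encodes the homeodomain factor at the head of photoreceptor development, which bipolar cells and the pigment epithelium also express. It has 1 probe set, which read 8.60, 8.39 and 8.34 in prCAD mutant arrays against 8.51, 8.42 and 8.62 in wild type arrays. The groups overlapped, and the difference was -0.07 (SE 0.11, 95% interval -0.33 to 0.18). Within the pairs it was 0.09, -0.04 and -0.28, so its sign differed between pairs. Markers of the pigment epithelium were higher in these mutant arrays, at 10 of 10 genes, with a mean level of 6.91 to 7.29 in prCAD mutant against 5.61 to 6.48 in wild type arrays and 0 genes below the overall median. Their part in the Otx2 value was not tested.

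Crx encodes the cone-rod homeobox factor, which drives most photoreceptor genes and binds sites with the core GGATTA. The first Crx probe set, 1418705_at, read 10.62, 10.38 and 10.10 in prCAD mutant arrays against 10.42, 10.40 and 10.29 in wild type arrays. The second, 1449185_at, read 10.06, 10.03 and 10.45 in prCAD mutant arrays against 10.44, 10.23 and 10.57 in wild type arrays. Groups overlapped at both. The first differed by -0.01 (SE 0.14, 95% interval -0.34 to 0.33) and changed sign between pairs, while the second differed by -0.23 (SE 0.15, 95% interval -0.58 to 0.12) and lay lower in all 3 pairs. Without wild type replicate 3 the second was -0.15, and without prCAD mutant replicate 3 -0.36. The probe sets thus differed in how even the sign was over pairs.

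Nrl encodes the neural retina leucine zipper factor that rods need. Its probe set, the brightest of any member, read 12.00, 11.85 and 11.91 in prCAD mutant arrays against 12.13, 11.97 and 12.24 in wild type arrays. Mutant replicate 1 lay above wild type replicate 2, so the groups overlapped, yet the difference had the same sign in all 3 pairs, at -0.12, -0.12 and -0.33. The fitted difference was -0.19 (SE 0.11, 95% interval -0.44 to 0.06, unadjusted p = 0.113), or 1.14-fold lower, and it was -0.12 without wild type replicate 3. Nrl, Otx2 and Thrb lie on chromosome 14 in GRCm38.p6, the chromosome that also carries Cdhr1.

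Sequence upstream of the members was taken from RefSeq on GRCm38.p6, which lists all 10 genes with 19 start sites, and the 250 bases before each start were searched on both strands. The motifs described were GGATTA of CRX and OTX2, TGCTGA, the core of the site that NRL and other MAF factors bind, and AAGGTCA, a site of nuclear receptors such as ESRRB and RORB. A MEF2-type motif was searched first, without a match in the member windows, and is not described further. GGATTA occurred in 4 of the 19 windows, against 6.25% of the 32851 windows of all genes. TGCTGA occurred in 4 (16.1% of all windows) and AAGGTCA in 2 (4.08%). Shown are the windows of Crx and Thrb, a photoreceptor-wide and a cone factor with GGATTA. For Thrb this is the first of its 2 listed starts, and the second holds no match. Which start serves the cone isoform was not examined. Also shown is the window of Samd7, which has GGATTA and lay higher. The last is that of Mef2c at the third of its 3 listed starts, which alone among its starts holds a match. Each is written 5′ to 3′ on the strand of the gene and ends at the base before the start, and capitals mark the motifs, TGACCTT being AAGGTCA on the other strand. The windows are chr7:15879956-15880205 on the minus strand for Crx, and on the plus strand chr14:17660710-17660959 for Thrb, chr3:30746043-30746292 for Samd7 and chr13:83573357-83573606 for Mef2c.
Crx: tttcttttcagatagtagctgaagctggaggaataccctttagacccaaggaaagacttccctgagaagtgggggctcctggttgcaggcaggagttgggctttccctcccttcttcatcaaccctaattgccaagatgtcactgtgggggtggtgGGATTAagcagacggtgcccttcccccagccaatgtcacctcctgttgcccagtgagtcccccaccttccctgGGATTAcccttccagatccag
Thrb: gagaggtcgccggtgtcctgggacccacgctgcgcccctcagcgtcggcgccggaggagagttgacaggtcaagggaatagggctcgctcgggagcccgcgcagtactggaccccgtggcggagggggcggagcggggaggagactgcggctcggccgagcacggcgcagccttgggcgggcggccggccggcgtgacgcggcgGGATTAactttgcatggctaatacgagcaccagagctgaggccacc
Samd7: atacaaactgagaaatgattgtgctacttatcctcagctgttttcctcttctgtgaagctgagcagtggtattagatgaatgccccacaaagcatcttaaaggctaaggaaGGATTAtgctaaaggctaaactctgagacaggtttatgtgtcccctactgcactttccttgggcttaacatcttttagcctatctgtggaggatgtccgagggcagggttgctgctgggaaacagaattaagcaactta
Mef2c: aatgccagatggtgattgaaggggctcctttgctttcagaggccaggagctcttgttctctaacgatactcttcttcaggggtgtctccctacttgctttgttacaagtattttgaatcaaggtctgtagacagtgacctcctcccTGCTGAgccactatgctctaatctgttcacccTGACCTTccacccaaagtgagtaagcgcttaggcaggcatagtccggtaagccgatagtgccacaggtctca
In the Crx window the 2 copies begin 94 and 21 bases before the start. In the Mef2c window TGCTGA begins 104 and TGACCTT 72 bases before the start, and they do not overlap. A match is a description of the letters in these windows and not of binding.

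Mef2c encodes a MADS-box factor that rods express late in their maturation, and that neurons, microglia and vessels use as well. Its brightest probe set, 1424852_at, read 7.57, 6.89 and 7.03 in prCAD mutant arrays against 8.20, 7.51 and 7.87 in wild type arrays. Only mutant replicate 1 reached above the lowest wild type array. The difference was -0.69 (SE 0.23, 95% interval -1.24 to -0.15, unadjusted p = 0.0199), and -0.62, -0.62 and -0.84 within the pairs, which is 1.62-fold lower.

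The dimmest Mef2c probe set, 1451507_at, read 5.18, 4.71 and 4.78 in prCAD mutant arrays against 5.82, 5.33 and 5.71 in wild type arrays. Here the groups did not overlap, and the difference was -0.73 (SE 0.18, unadjusted p = 0.00442). Its mutant mean of 4.89 lies near the overall median of 4.76, where background limits a difference. Probe set 1451506_at read 5.61, 5.74 and 6.60 in prCAD mutant arrays against 6.54, 6.58 and 7.28 in wild type arrays, with pair differences of -0.94, -0.84 and -0.68. Both arrays of replicate 3 stood above the others at this probe set, which let the groups overlap although the pairs differed alike. Its difference of -0.82 had an SE of 0.31 on group alone and of 0.09 with the block (adjusted p = 0.0848 with the block).

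The remaining Mef2c probe sets, 1421027_a_at and 1421028_a_at, carry the suffix of sets that can detect several transcripts of a gene. The first read 5.35, 5.23 and 6.81 in prCAD mutant arrays against 6.98, 6.40 and 7.12 in wild type arrays, and the second 4.98, 4.79 and 6.37 against 6.27, 5.997 and 6.98. Mutant replicate 3 stood well above the other mutant arrays at both. Their differences were -1.04 (SE 0.42) and -1.04 (SE 0.44), but within the third pair only -0.32 and -0.61, against -1.64 and -1.30 in the first pair. At 1424852_at and 1451507_at the third pair instead had the largest difference. In total 15 of 15 pair differences of Mef2c lay lower, from -1.64 to -0.32. A difference in the same direction in all 3 pairs, mutant lower, was found at 13.1% of all probe sets.

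Markers of other cells that carry Mef2c did not all lie on 1 side. Microglia markers lay higher in the mutant arrays at 8 of 8 genes (mean level 5.45 to 5.58 in prCAD mutant against 5.14 to 5.24 in wild type arrays, 2 genes below the overall median). Vascular markers lay higher at 5 of 8 (5.19 to 5.44 against 5.16 to 5.39, 4 below the median). Ganglion cell markers lay lower at 7 of 7 (6.72 to 7.02 in prCAD mutant against 7.17 to 7.40 in wild type arrays, 1 below the median), at a median difference of -0.36. Markers of other neurons lay lower at 4 of 6 amacrine, 3 of 4 bipolar and 2 of 3 horizontal cell genes. Their median differences were -0.03, -0.12 and -0.002, and 2 of the horizontal cell genes were below the overall median. The part of any of these cells in the Mef2c difference was not tested. Its relatives were chosen after the member values were seen. All 6 probe sets of Mef2a lay lower as well, from -0.25 to -0.03, 2 of them in all 3 pairs, and the brightest differed by -0.03 (SE 0.15). Those 2 had means of 5.02 and 3.75 in prCAD mutant against 5.27 and 3.90 in wild type arrays, near or below the overall median. Of the 3 probe sets of Mef2d 1 lay lower and 2 higher, from -0.04 to 0.07, 1 of them higher in all 3 pairs. The 1 probe set of Mef2b lay higher by 0.10, also in all 3 pairs. Whether Mef2c differed from its relatives was not tested.

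**Figure D2:**
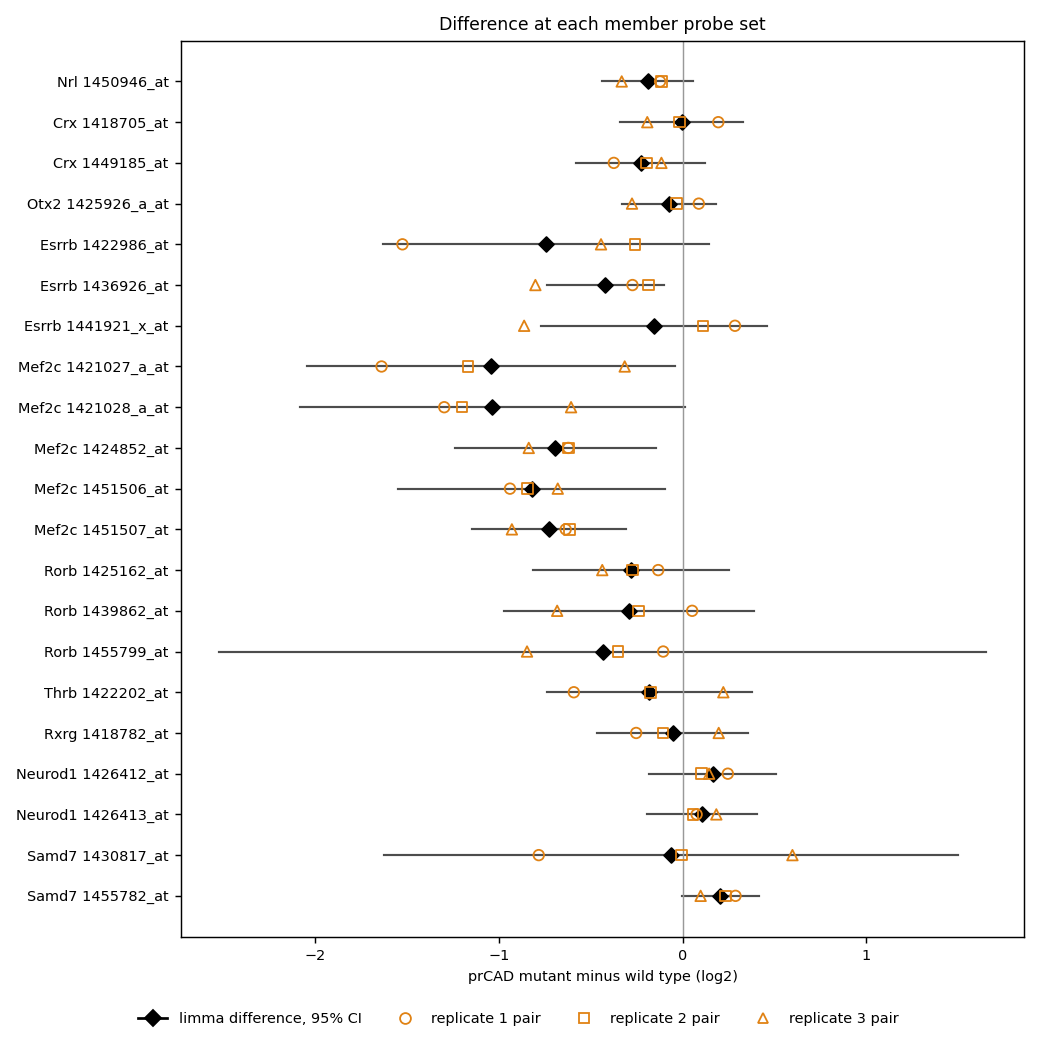
Difference between prCAD mutant and wild type at each member probe set in log2 units, with the limma estimate (diamond), its 95% interval (bar) and the difference within each pair of same-numbered arrays (open symbols). The 5 Mef2c rows lie between -1.04 and -0.69 with all open symbols left of 0, and the interval of 1421028_a_at reaches 0.01.

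Esrrb encodes an orphan nuclear receptor of rods. Its brightest probe set, 1436926_at, read 9.23, 9.20 and 9.01 in prCAD mutant arrays against 9.51, 9.39 and 9.81 in wild type arrays. The groups did not overlap, and the difference was -0.42 (SE 0.13, 95% interval -0.74 to -0.10, unadjusted p = 0.0164), with the largest pair difference, -0.80, in the third pair. Of the 21 member probe sets 2 had groups that did not overlap with the mutant lower, this and the dimmest of Mef2c, where 3.07% of all probe sets did.

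The other Esrrb probe sets varied more. Probe set 1422986_at read 6.70, 7.05 and 7.91 in prCAD mutant arrays against 8.23, 7.31 and 8.35 in wild type arrays, a difference of -0.74 (SE 0.37) that came mostly from the first pair (-1.52, against -0.26 and -0.44) and was -0.48 without prCAD mutant replicate 1. Probe set 1441921_x_at, whose suffix marks possible cross-hybridisation, read 8.24, 7.96 and 7.99 in prCAD mutant arrays against 7.96, 7.85 and 8.85 in wild type arrays. It lay higher in the first 2 pairs and lower in the third, and the difference of -0.16 (SE 0.26) became 0.16 without wild type replicate 3. The 3 probe sets therefore shared a sign but not a pattern over arrays.

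Rorb encodes the orphan nuclear receptor that starts rod differentiation upstream of Nrl and that amacrine and horizontal cells also use. Probe set 1425162_at read 7.29, 7.20 and 7.71 in prCAD mutant arrays against 7.42, 7.47 and 8.15 in wild type arrays, a difference of -0.28 (SE 0.23), lower in all 3 pairs. Without wild type replicate 3 it was -0.05, without prCAD mutant replicate 2 -0.18 and without prCAD mutant replicate 3 -0.44. Probe set 1439862_at read 7.81, 7.58 and 6.70 in prCAD mutant arrays against 7.76, 7.82 and 7.38 in wild type arrays, a difference of -0.29 (SE 0.29) that became 0.04 without prCAD mutant replicate 3. Replicate 3 was thus the highest of its group at 1 probe set and the lowest at the other, in both groups.

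The third Rorb probe set, 1455799_at, read 5.53, 6.75 and 7.99 in prCAD mutant arrays against 5.64, 7.10 and 8.84 in wild type arrays. The means of the same-numbered arrays spanned 2.83 there, the widest of any member, against a group difference of -0.43 (SE 0.88). With the block its SE was 0.15 (adjusted p = 0.607 with the block). Over the 3 Rorb probe sets 8 of 9 pair differences lay lower. Its relative Rora, chosen after the member values were seen, lay lower at 7 of its 9 probe sets and higher at 2, from -0.38 to 0.36, with -0.03 (SE 0.20) at the brightest. In all 3 pairs 3 of them lay lower, by -0.32, -0.32 and -0.30, sizes like those at Rorb 1425162_at and 1439862_at.

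**Figure D3:**
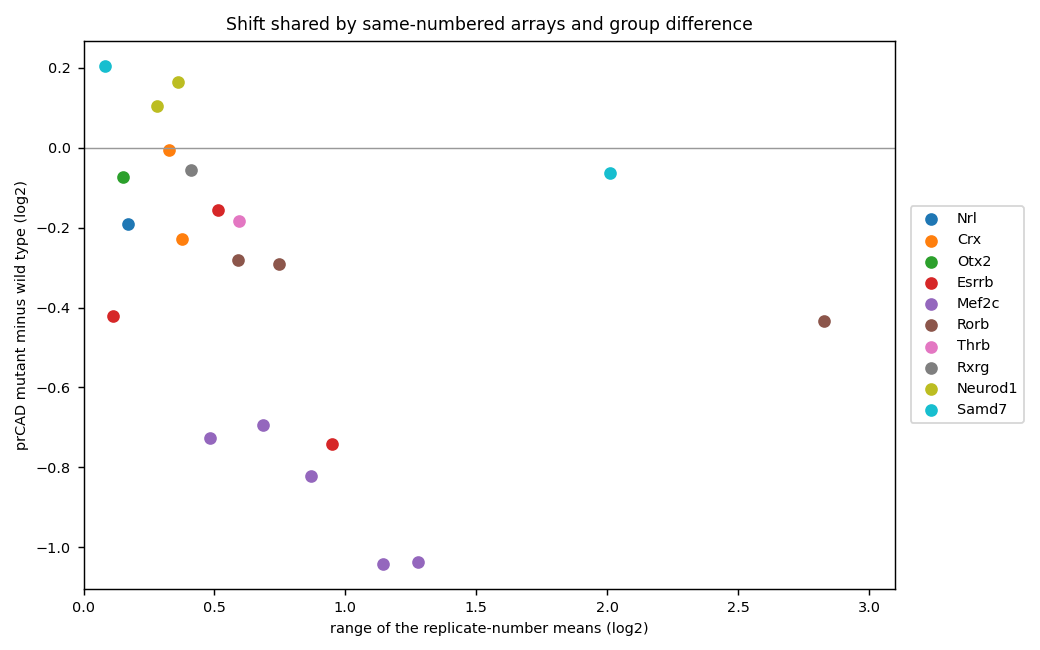
Range of the means of same-numbered arrays (horizontal axis, log2) against the difference between prCAD mutant and wild type (vertical axis, log2) for the 21 member probe sets, coloured by gene. The ranges run from 0.08 to 2.83 with a median of 0.51, and 4 probe sets exceed 1: 1 of Rorb, 1 of Samd7 and 2 of Mef2c.

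The cone factors were dim on this array. Thrb encodes the thyroid hormone receptor whose cone isoform directs the middle-wavelength opsin, and its probe set read 4.76, 4.72 and 5.51 in prCAD mutant arrays against 5.35, 4.90 and 5.29 in wild type arrays. It differed by -0.18 (SE 0.24, 95% interval -0.74 to 0.38) and by -0.59, -0.18 and 0.22 within the pairs. Rxrg encodes the retinoid X receptor that partners it, and read 5.44, 5.46 and 5.25 in prCAD mutant arrays against 5.69, 5.57 and 5.06 in wild type arrays. It differed by -0.05 (SE 0.17, 95% interval -0.47 to 0.36). Groups overlapped at both, the third pair had the opposite sign to the first in each case, and both lie near the overall median, with the same limit as the dimmest Mef2c probe set.

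Neurod1 encodes a basic helix-loop-helix factor that photoreceptors need to survive and that cones need for Thrb expression. Probe set 1426412_at read 10.59, 10.48 and 10.86 in prCAD mutant arrays against 10.34, 10.38 and 10.71 in wild type arrays. Probe set 1426413_at read 10.48, 10.19 and 10.27 in prCAD mutant arrays against 10.40, 10.13 and 10.09 in wild type arrays. Groups overlapped at both, but 6 of 6 pair differences lay higher, from 0.06 to 0.25. The fitted differences were 0.16 (SE 0.15, 95% interval -0.18 to 0.51) and 0.11 (SE 0.13, 95% interval -0.19 to 0.40). Single arrays moved both: 1426412_at was 0.06 without prCAD mutant replicate 3 and 0.28 without wild type replicate 3, and 1426413_at was 0.02 without prCAD mutant replicate 1 and 0.20 without wild type replicate 1.

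Samd7 encodes a sterile alpha motif protein of Polycomb repression in photoreceptors, which keeps genes of other cell types silent in rods. Its brighter probe set, 1455782_at, read 7.66, 7.60 and 7.61 in prCAD mutant arrays against 7.37, 7.37 and 7.51 in wild type arrays. The groups did not overlap, with the mutant higher, as at 4.73% of all probe sets, and the difference of 0.21 (SE 0.09, unadjusted p = 0.0526) was 0.29, 0.23 and 0.10 within the pairs. The other probe set, 1430817_at, read 3.21, 4.49 and 5.91 in prCAD mutant arrays against 4.00, 4.50 and 5.32 in wild type arrays. It is the only member probe set with a mean below the overall median, and its difference was -0.06 (SE 0.66). Together with Neurod1, the brighter Samd7 probe set makes up the 3 members higher in all 3 pairs, against 17% of all probe sets. Lower in all 3 pairs were 11 members, 5 of Mef2c and 6 of other genes, against 13.1% of all probe sets.

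Taken at the brightest probe set of each gene, 8 of the 10 factors lay lower and 2 higher. Their median difference was -0.13, against 0.02 over all 18193 named genes, and -0.13, -0.11 and -0.23 within the pairs, against 0.04, 0.02 and 0.01 over all named genes. Without prCAD mutant replicate 2 the median of the 10 was -0.07, and without wild type replicate 2 it was -0.19.

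Genes that work with or under these factors were taken from lists, each gene at its brightest probe set, and 0 of their 98 genes passed an adjusted p of 0.05 over all probe sets. Of 30 measured other photoreceptor factors and co-regulators, 15 lay higher and 15 lower, at a median of 0.01. Within the pairs it was 0.04, -0.03 and 0.04. Notch1, the receptor whose activity holds back photoreceptor fate, read 7.36, 7.10 and 7.54 in prCAD mutant arrays against 6.81, 6.78 and 6.76 in wild type arrays, 0.55 higher without overlap (SE 0.12, unadjusted p = 0.00314). Prdm1, which keeps young photoreceptors from becoming bipolar cells, differed by -0.31 (SE 0.14), Casz1, a zinc finger factor, by 0.62 (SE 0.29) and Foxn4, a factor of amacrine and horizontal precursors, by 0.32 (SE 0.16). At an unadjusted p under 0.05, 0 genes of that list lay lower and 1 higher, and 1 lower and 4 higher with the replicate block. Of 30 measured factors of other retinal cells, 19 lay lower and 11 higher, at a median of -0.03, and at 0.02, -0.06 and 0.03 within the pairs. Those with the smallest p were Lhx4 at 0.17 (SE 0.11) and Ptf1a at 0.23 (SE 0.16), followed by Bhlhe23 at -0.17 (SE 0.12) and Sox9 at 0.11 (SE 0.09). In this list 0 had an unadjusted p under 0.05, and with the block 0 lay lower and 1 higher. Over all probe sets 1.34% lay lower and 1.68% higher on group alone, and 3.83% and 3.77% with the block.

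Rod genes bound or driven by NRL and CRX lay lower at 20 of 25 measured genes, at a median of -0.19, and at -0.08, -0.02 and -0.31 within the pairs. The members of that list with the smallest p went both ways. Aipl1, a chaperone for the phosphodiesterase, read 11.22, 11.13 and 11.03 in prCAD mutant arrays against 10.87, 10.66 and 10.77 in wild type arrays, 0.36 higher without overlap (SE 0.10). Sag, the rod arrestin, differed by 0.26 (SE 0.09), Reep6 of rod membrane traffic by -0.42 (SE 0.16) and the rod calcium exchanger gene Slc24a1 by -0.28 (SE 0.11). At an unadjusted p under 0.05 there were 3 lower and 2 higher rod genes of 25, where 1.34% of all probe sets lay lower and 1.68% higher. With the replicate block there were 5 lower and 2 higher, where 3.83% and 3.77% of all probe sets did.

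Of 13 measured cone genes 6 lay lower and 7 higher, at a median of 0.03. Within the pairs the median was -0.05, -0.002 and -0.06, so its sign there was opposite to that of the fitted differences. The cone phosphodiesterase gene Pde6c read 7.72, 7.68 and 7.43 in prCAD mutant arrays against 7.004, 6.71 and 6.83 in wild type arrays, 0.76 higher without overlap (SE 0.12, adjusted p = 0.479). Gnb3, a transducin subunit of cones and ON bipolar cells, differed by 0.99 (SE 0.21) and Gulo by 0.56 (SE 0.13), also without overlap, while Opn1mw, the middle-wavelength opsin that THRB favours, differed by -0.31 (SE 0.15). At an unadjusted p under 0.05 there were 0 lower and 3 higher cone genes of 13, against 1.34% and 1.68% of all probe sets. With the replicate block there were 3 lower and 3 higher, against 3.83% and 3.77% of all probe sets.

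**Figure D4:**
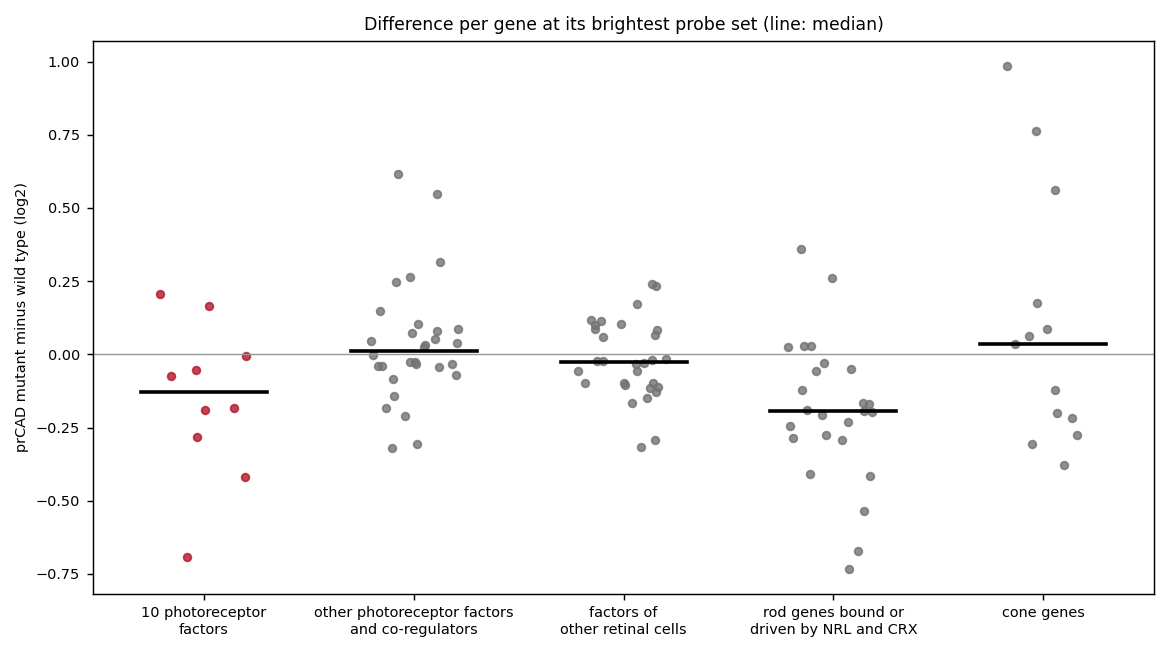
Difference between prCAD mutant and wild type (log2) for the 10 photoreceptor factors (red) and for the genes of the 4 related lists (grey), each gene at its brightest probe set, with a black line at each list's median. The factors' median is -0.13 and that of the rod genes -0.19, while the other lists have medians between -0.03 and 0.03.

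The patterns over the 6 arrays most like those of Esrrb and Mef2c, the members at an unadjusted p under 0.05 at their brightest probe sets, were sought among 11808 genes with a mean at or above the overall median. Likeness was the root mean square difference of the log2 values after each probe set was centred on its own mean. Nearest to Esrrb were Zfp467 at 0.05, Nars at 0.07 and Lynx1 at 0.07, with differences between prCAD mutant and wild type of -0.38, -0.31 and -0.50. Nearest to Mef2c were Tmlhe at 0.16, Ak4 at 0.18 and Trim36 at 0.19, with differences of -0.77, -0.49 and -0.35. With 6 arrays and so many genes some close patterns are found for any gene.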

How the data were processed

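Retinal RNA was hybridised to 6 single-colour Affymetrix arrays. The deposited values are log2 expression that the authors obtained with RMA, as the submitters' processing notes name it. RMA removes differences between arrays in total signal before any test. The version and build are not given in the sources used here. Of 45101 probe sets 64 manufacturer controls were left out of the tests. Of the other 45037 the platform annotation gives 34945 a single gene symbol, 932 several and 9160 none.

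The fit was limma 3.58.1 (lmFit and eBayes, R 4.3.3) on group alone, two-sided, with Benjamini-Hochberg adjustment over the 45037 probe sets and a threshold of 0.05. Every SE is of that fit unless marked. Across probe sets, what same-numbered arrays deviated from their group means by correlated at 0.477, 0.469 and 0.563. The replicate numbers were therefore treated as pairs in the pair differences and in the block fit, but not in the fit on group alone. This reading comes from the values, as no label states what the numbers stand for. In 10 simulated data sets with 200 changed probe sets among 45037, the fit on group alone recovered 7% of log2 changes of 0.5, 83.4% of changes of 1 and 98% of changes of 2. Noise was drawn independently for each array there, so the deviations that same-numbered arrays share were left out. In the data 5 probe sets passed, far fewer than were planted. The recovered shares may therefore not hold for these data. The number of arrays limits the precision of every value.

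The members and lists were chosen with earlier results of these data known. Named are all member probe sets, Cdhr1, the 4 genes of each related list with the smallest p and the 3 genes most like a member. Outside that rule are the relatives Mef2a, Mef2b, Mef2d and Rora, chosen after the member values were seen. Other relatives of the members were measured as well and are not described here. Of 108 list genes 10 are not named by a probe set here. The alternatives tried were the replicate number as a block, 2 dim filters, quantile normalization, median centring, trend and robust moderation, array weights, dropping probe sets whose suffix marks cross-hybridisation, other thresholds, the mean of a gene's probe sets and leaving out arrays.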

Additional observations from a re-analysis of the deposited data

How the results depend on the processing

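No member probe set and no gene of the related lists passed an adjusted p of 0.05 under any of the 17 refits, and at 0.10 no member passed in the fit on group alone. The smallest member adjusted p over the refits was 0.0753, at Mef2c 1421028_a_at without both arrays of replicate 3. At an unadjusted p of 0.05 the counts are 5 members, all lower, and 9 list genes, 3 lower and 6 higher. Of all probe sets 1.34% lay lower and 1.68% higher at that threshold. The member count was 10 with the replicate block and 9 with array weights. It ran from 2 to 8 without single arrays and was 7 without both arrays of replicate 3. Without both arrays of replicate 1 it was 2, and without both of replicate 2 it was 3, settings chosen after seeing the data. The share over all probe sets was not counted for these refits or for array weights. With the replicate block the list genes at that threshold were 19, 9 lower and 10 higher, and no adjusted call changed. Of all probe sets 3.83% lay lower and 3.77% higher with the block. The median difference of the 10 genes stayed between -0.19 and -0.07, and was -0.15 with the mean of a gene's probe sets.

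All 5 Mef2c probe sets kept their direction in the 17 refits, as did 8 further member probe sets. The other 8 turned direction in at least 1 refit. With array weights Crx 1418705_at was 0.0034 and Esrrb 1441921_x_at 0.0168. Over the fits without 1 array or 1 pair, Crx 1418705_at ran from -0.1317 to 0.1282, Otx2 from -0.1554 to 0.0263, Esrrb 1441921_x_at from -0.3766 to 0.1970, Rorb 1439862_at from -0.5158 to 0.0417, Rorb 1455799_at from -1.2108 to 0.3884, Thrb from -0.4405 to 0.0224, Rxrg from -0.2458 to 0.0721 and Samd7 1430817_at from -0.7510 to 0.5987. The cause was not tested.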
